A study of Mus musculus with 16 samples.

Results

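The cold change of m6A enrichment was followed here in wild-type mouse adipose tissue, gene by gene, over 5868 of the 17883 genes in the deposited matrix (32.81%). N6-methyladenosine (m6A) enrichment was taken as the log2 ratio of RPKM + 1 in RNA captured by an antibody against m6A over RPKM + 1 in the input RNA it was taken from, and its cold change as the ratio in cold-exposed mice minus the ratio at room temperature (RT). RPKM is the number of reads scaled to transcript length and to the total of the library. Members were all genes with at least 5 RPKM in each of the 4 wild-type (WT) inputs, so that both sides of the ratio rest on RNA present at both temperatures. The comparison used 8 of the 16 libraries of the series, with 2 libraries in each of 4 groups: input RT, input cold, m6A RT and m6A cold. All came from C57BL/6 mice aged 8 weeks that carried METTL3 flox/flox with no Cre stated. RT mice were untreated, and cold mice were caged singly at 4 °C for 7 days. A further 4 input and m6A libraries of METTL3-deleted mice in the cold (cKO cold: the same floxed allele with Adipoq-Cre, which acts in adipocytes) entered the fit only to estimate the spread. Replicates are not stated to be separate animals, so p-values measure the spread between these libraries, which may be technical, and the depot within adipose tissue is not given.

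m6A is a methyl mark placed on adenosines of mRNA by a nuclear writer complex whose catalytic subunit is METTL3, removed by the demethylases FTO and ALKBH5, and read by YTH-domain proteins that steer decay, splicing and translation. It is often found near stop codons and in long internal exons. In white fat, cold brings on beiging, the gain of mitochondria-rich, heat-producing adipocytes, and the series asks what METTL3-dependent m6A does in that process. A capture ratio per gene compares how much of a gene's RNA the antibody recovered with how much was there. It does not count methylated sites, and an RPKM in the precipitate is a share of the precipitated reads.

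Values of the 8 WT libraries were scaled by the authors to totals of 4454199 to 8674180 reads. The library codes in the labels run in one series for RT and in another for the cold, and in no result given here can the effect of temperature be told apart from a difference between these code series. Of the 22 adipocyte genes listed for the tissue check, 21 were members. All 16 T and B cell markers in the matrix were non-members: their summed input was 1085 and 993 RPKM in the RT libraries and 4.15 and 3.19 in the cold libraries, with Cd79a among those at 0 in both cold inputs. Lymph node stroma markers summed to 728 and 707 RPKM at RT and to 7.87 and 34.1 in the cold, with Glycam1 at 0 in both cold inputs, and skeletal muscle markers to 354 and 11.5 at RT and to 2.27 and 8.73 in the cold. Fibroblast and preadipocyte markers, of which 18 were members, summed to 5382 and 5075 RPKM at RT and to 2729 and 2411 in the cold. In tissue RNA, fewer cells of a type and less RNA per cell cannot be told apart, and the part of these cell-type differences in the results was not tested. Lars2 alone, annotated as the mitochondrial leucyl-tRNA synthetase, took 2.28% and 3.03% of RT input, 7.75% and 9.88% of cold input, 15.2% and 15.4% of RT precipitate and 25.3% and 24.3% of cold precipitate.

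Capture ratios moved little with cold beside the movement of the RNA itself. Over the 5868 members the median log2 change of enrichment was 0.15 (a ratio 1.11 times as high in the cold), against 0.11 over all 13062 genes tested. The middle 50% of members lay between -0.07 and 0.36, and the 5th and 95th percentiles were -0.41 and 0.70. Within 0.5 of the median lay 86.86% of members. Only 52 members differed by more than 1 on the log2 scale by their point estimate, 38 upwards and 14 downwards, with the ends at Xkrx (-4.72) and Gm3839 (1.87).

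The precipitate followed the input. Across members, the SD of the cold change was 0.81 for input RNA and 0.84 for the precipitate but 0.35 for the ratio between them. Input change and precipitate change come from different libraries, and across genes (which are not independent replicates) they correlated with Pearson's r = 0.91 and Spearman's rho = 0.89. In the input, 685 of the 5868 members rose and 2800 fell, with a median of -0.43; over all 13062 genes tested, 885 (6.78%) rose and 7138 (54.6%) fell. In the precipitate, 953 members rose and 2303 fell, with a median of -0.30, beside 1172 (8.97%) and 6168 (47.2%) of all genes tested. These splits move with the scaling of the libraries: with median-ratio scaling 2194 members rose and 803 fell in the input and 2311 and 852 in the precipitate, and with libraries scaled on the rest of their reads, leaving out Lars2, Gm20594 and mitochondrial mRNAs, the numbers were 1014 and 1989 in the input and 1521 and 1459 in the precipitate. The median change of the ratio was 0.02 with median-ratio scaling, 0.12 with quantile scaling and 0.20 with scaling outside the mitochondrial reads. Unless another scaling is named, single-gene changes and p-values below use RPKM as deposited and are tested against 0. The shift of the median member is therefore contained in them and in the counts of higher and lower genes. List medians are read beside the median member.

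**Figure D1:**
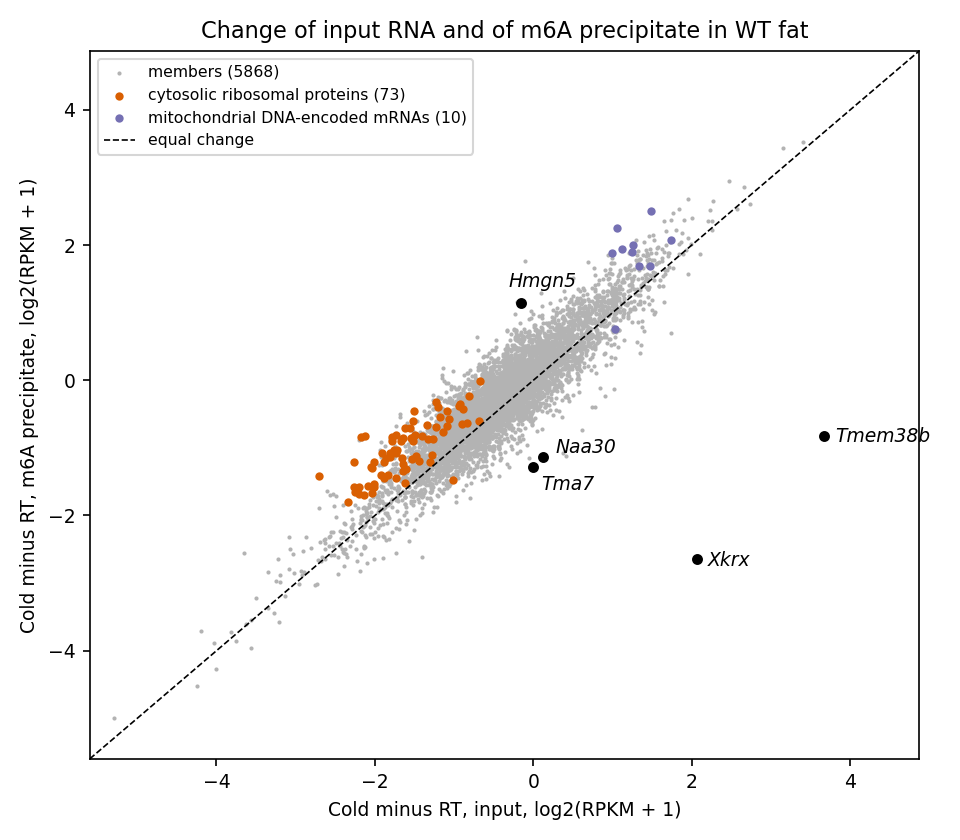
Each grey point is 1 of the 5868 members, with the cold minus RT change of input RNA on the horizontal axis and that of the m6A precipitate on the vertical axis, both in log2(RPKM + 1) and as the mean of 2 libraries per group; the dashed line marks equal change. Most points follow the line, the 73 ribosomal protein mRNAs (orange) sit at the lower left and mostly above it, the 10 mitochondrially encoded mRNAs (purple) at the upper right and mostly above it, and Tmem38b and Xkrx lie far to the right and below.

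At the level of single genes, 1 member passed the test and it fell: Tmem38b. The test was limma on log2(RPKM + 1), with Benjamini-Hochberg adjustment over all 13062 genes tested and a threshold of 0.05. It called 8 genes in all (0.0612%; 0.023% higher and 0.0383% lower), and 7 of the 8 were not members. At an unadjusted p under 0.05 stood 789 members (13.45%), of which 681 were higher and 108 lower. The median SE of a change was 0.25, and the median 95% interval, not adjusted for the number of genes, reached 0.55 to either side (1.47-fold). With 2 libraries per group, the adjusted threshold asked for larger changes than that in a typical member. Fau, with an SE of 0.18, stood at 1.29 and did not pass the limma test (adjusted p = 0.0507).

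How the libraries of a pair are treated changed this count. Input and precipitate of the same condition and replicate number deviated together from their group means (correlations over members of 0.32 at RT, 0.69 in WT cold and 0.50 in cKO cold), so the numbers pair libraries, as seen in the data and not stated in the labels. With the pairs as a random effect, a fit chosen after seeing the data, 211 members were called: 192 higher (3.27% of members) and 19 lower (0.324% of members). Over all genes tested the same fit called 337 (2.58%), 268 of them higher (2.05%) and 69 lower (0.528%). With exact paired ratios, 0 members were called. By the 4 ratios themselves, both cold pairs lay above both RT pairs for 2653 members (45.2%), both below for 948 (16.2%), and 2267 overlapped. After subtracting the median change of members (0.15) from both cold ratios, which by construction brings the sides near balance, 1684 (28.7%) lay above and 1697 (28.9%) below.

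Tmem38b encodes TRIC-B, a cation channel of the endoplasmic reticulum. Its input stood at 9.06 and 11.6 RPKM at RT and at 93.7 and 217 in the cold, whereas its precipitate stood at 9.40 and 15.2 at RT and at 6.61 and 6.14 in the cold. The input libraries did not overlap between temperatures and neither did the precipitates, and they moved apart in opposite directions. The log2 ratio was 0.05 and 0.36 in the RT pairs and -3.64 and -4.93 in the cold pairs, a fall of -4.49 ± 0.50 (SE; adjusted p = 0.0268), and the ratio was 22.5 times lower in the cold. The change of input alone was 3.67 (adjusted p = 1.53e-05), and that of the precipitate alone, -0.82, did not pass (adjusted p = 0.0700). The call was lost with a pseudocount of 0.1 (adjusted p = 0.0569), with the 8 WT libraries alone (0.113), with exact pairs (adjusted p = 0.0755), with voom weights on the recovered reads (0.0933) and without either RT input (0.248 and 0.189), either RT precipitate (0.136 and 0.106) or either cold precipitate (0.134 and 0.159).

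Xkrx, an XK-family membrane protein gene on the X chromosome, had the lowest change of all members and did not pass. Its input was 5.30 and 5.21 RPKM at RT and 10.8 and 57.1 in the cold, and its precipitate 6.26 and 8.54 at RT and 0.229 and 0.433 in the cold. The cold precipitate held 4 and 8 reads. Its 2 cold inputs differed more from each other than the lower of them did from RT. The change of the ratio was -4.72 ± 0.80 (adjusted p = 0.0920; 0.00962 with pairs as a random effect). Xkrx passed in limma with quantile scaling (-4.91, adjusted p = 0.0426). It did not pass with median-ratio scaling (0.0921), scaling outside the mitochondrial reads (0.0846) or pseudocounts of 0.1 (0.121) and 5 (0.0698). Neither did it pass with exact pairs (0.0876), the 8 WT libraries alone (0.157) or voom weights on the recovered reads (0.298). The change was -5.86 without cold input replicate 1 and -3.57 without cold input replicate 2.

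**Figure D2:**
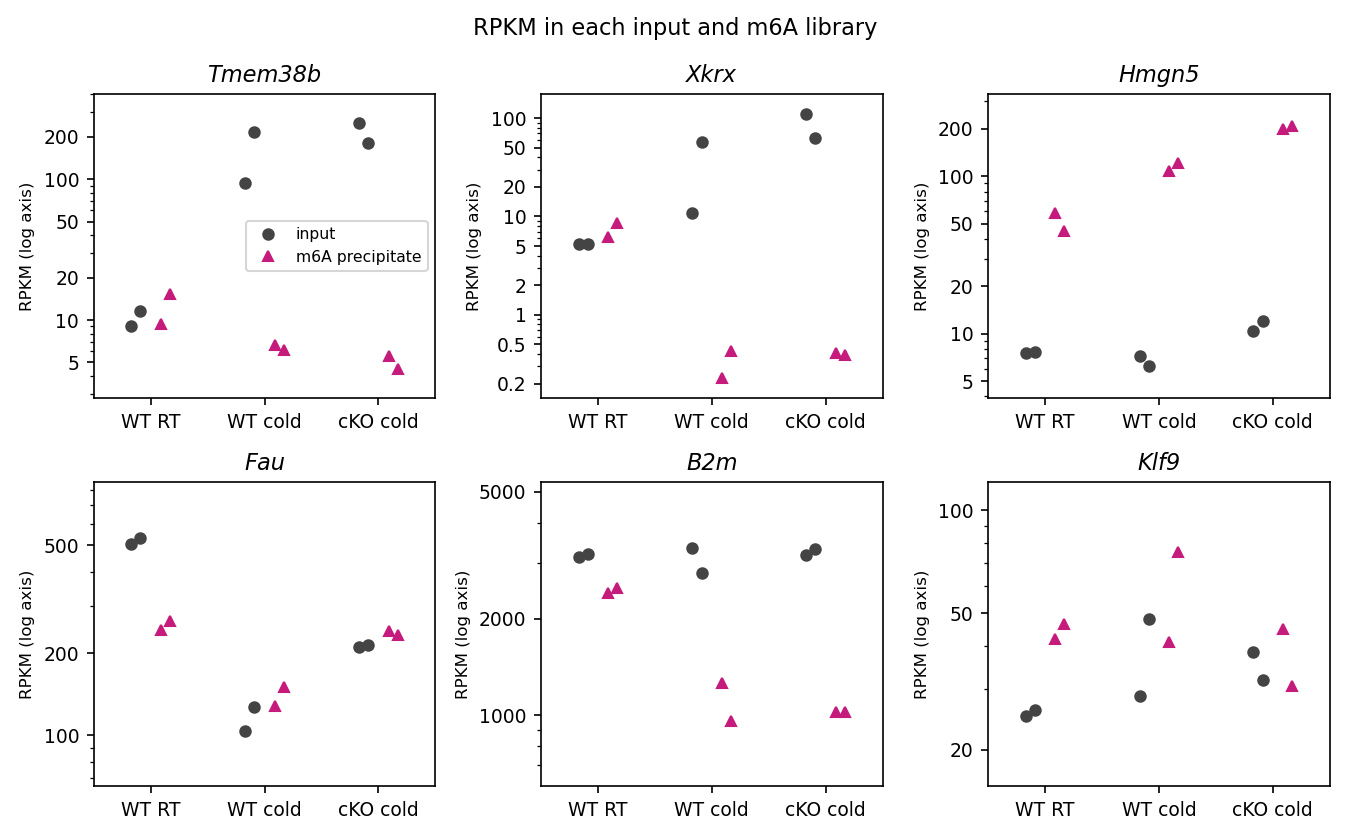
RPKM of 6 genes in each library, on log axes, with input as grey circles and m6A precipitate as pink triangles, 2 libraries per group, for WT RT, WT cold and cKO cold. In Tmem38b and Xkrx the input is higher and the precipitate lower in the cold, in Hmgn5 and B2m the precipitates differ more than the inputs, in Fau the inputs differ more between temperatures than the precipitates, and in Klf9 the precipitates overlap between temperatures.

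The other 10 of the 12 members named for the lowest p on the lower side did not pass, with changes between -1.53 and -0.82. All 10 were called with pairs as a random effect (adjusted p up to 0.0270). With exact pairs none of the 10 was called (adjusted p between 0.0755 and 0.134 in limma). They were chosen for low p in these same data, so neither refit is a separate test of them. B2m, the constant light chain of MHC class I, is the most abundant of them. Its input was 3135 and 3198 RPKM at RT and 3346 and 2794 in the cold, and its precipitate 2403 and 2498 at RT and 1258 and 960 in the cold. The inputs overlapped between temperatures and the precipitates did not, and the ratio differed by -1.11 ± 0.24 (adjusted p = 0.140). Tma7, a translation-associated protein, showed the same form: input of 31.9 and 28.2 RPKM at RT and of 33.2 and 26.9 in the cold stood against precipitate of 93.6 and 88.3 and of 34.2 and 39.4, a change of -1.28 ± 0.22 (adjusted p = 0.0941). The inputs of Naa30 differed little beside its precipitates; it encodes the catalytic subunit of the NatC N-terminal acetyltransferase and had input of 7.17 and 7.02 RPKM at RT and of 8.13 and 7.54 in the cold and precipitate of 17.6 and 18.8 and of 8.04 and 7.35 (-1.27 ± 0.20; adjusted p = 0.0795). In these 3 genes the difference in the ratio lay mostly in the precipitate.

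Rps27l, which encodes a paralog of a small-subunit ribosomal protein, differed by -1.53 ± 0.25 with input of 19.1 and 16.2 RPKM at RT and of 21.5 and 26.2 in the cold. Its cold precipitate rested on 12 and 16 reads, so it is among the less precise of the named genes, and near-identical copies of such genes can split their reads. Slx1b, a structure-specific endonuclease subunit, stood at -1.35 ± 0.25, and Fcor, a corepressor of Foxo1 described in adipose tissue, at -1.18 ± 0.27. In Fcor the input was higher in the cold (23.0 and 23.8 against 37.1 and 45.2 RPKM), while the precipitate was lower by its point estimate (47.2 and 61.6 against 36.1 and 45.6). Fem1c, a substrate receptor of a ubiquitin ligase, stood at -0.98 ± 0.20, Ifnar2, a subunit of the type I interferon receptor, at -0.97 ± 0.19, Fbxl5, the iron-sensing F-box protein, at -0.91 ± 0.21, and Rap1b, a Ras-like GTPase, at -0.82 ± 0.17. In each of these 4 the point estimates of input and precipitate were both lower in the cold, the precipitate more so; for Rap1b the input was 62.3 and 58.2 RPKM at RT and 29.1 and 31.2 in the cold, and the precipitate 43.2 and 42.2 and then 11 and 12.2.

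None of the 12 members named for the lowest p on the higher side passed, and all 12 were called with pairs as a random effect (adjusted p between 0.00454 and 0.0133). With exact pairs none of the 12 was called (adjusted p between 0.0755 and 0.1235 in limma). They were chosen for low p in these same data, so neither refit is a separate test of them. Hmgn5, a nucleosome-binding protein, had the highest capture ratio among them. Its input was 7.61 and 7.61 RPKM at RT and 7.27 and 6.27 in the cold, and its precipitate 58.4 and 44.9 at RT and 107 and 121 in the cold. The precipitates did not overlap and the ratio differed by 1.29 ± 0.21 (adjusted p = 0.0795). Kif5b, a kinesin heavy chain, and Canx, the endoplasmic reticulum chaperone calnexin, had a higher precipitate beside a somewhat lower input. Kif5b input was 25.1 and 24.3 RPKM at RT and 20.3 and 20.9 in the cold, with precipitate of 11.3 and 9.74 and of 17.1 and 19.8 (1.00 ± 0.18). Canx input was 71.9 and 71.2 RPKM at RT and 57.5 and 55.3 in the cold, with precipitate of 46.9 and 44.3 and of 66.2 and 62.7 (0.83 ± 0.15).

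Also among the 12, Rbm39, a splicing factor, had input of 67.9 and 66.1 RPKM at RT and of 31.4 and 28.2 in the cold, and precipitate of 71.1 and 53.3 and of 65.7 and 75.2, which overlapped between temperatures; the ratio differed by 1.33 ± 0.22. Srsf11, a serine- and arginine-rich splicing factor, had input of 32.95 and 30.84 RPKM at RT and of 14.8 and 15.6 in the cold, with overlapping precipitates, and a change of 1.16 ± 0.20. Sun1, a protein of the inner nuclear membrane, differed in the scale of both assays: input went from 47.6 and 44.6 RPKM to 7.92 and 10.9 and precipitate from 13.5 and 11.4 to 5.85 and 6.77 (1.32 ± 0.23). Ubxn1, a UBX-domain ubiquitin-binding protein, differed by 1.08 ± 0.16, Cfdp1, a chromatin-associated protein, by 1.28 ± 0.23, and Ndufa5, a subunit of respiratory complex I, by 1.06 ± 0.19. Ndufa5 was the one of the 12 whose input rose, from 26.6 and 29.2 RPKM to 47.2 and 43.9, beside a precipitate that went from 13.8 and 13.1 to 49.8 and 45.2.

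**Figure D3:**
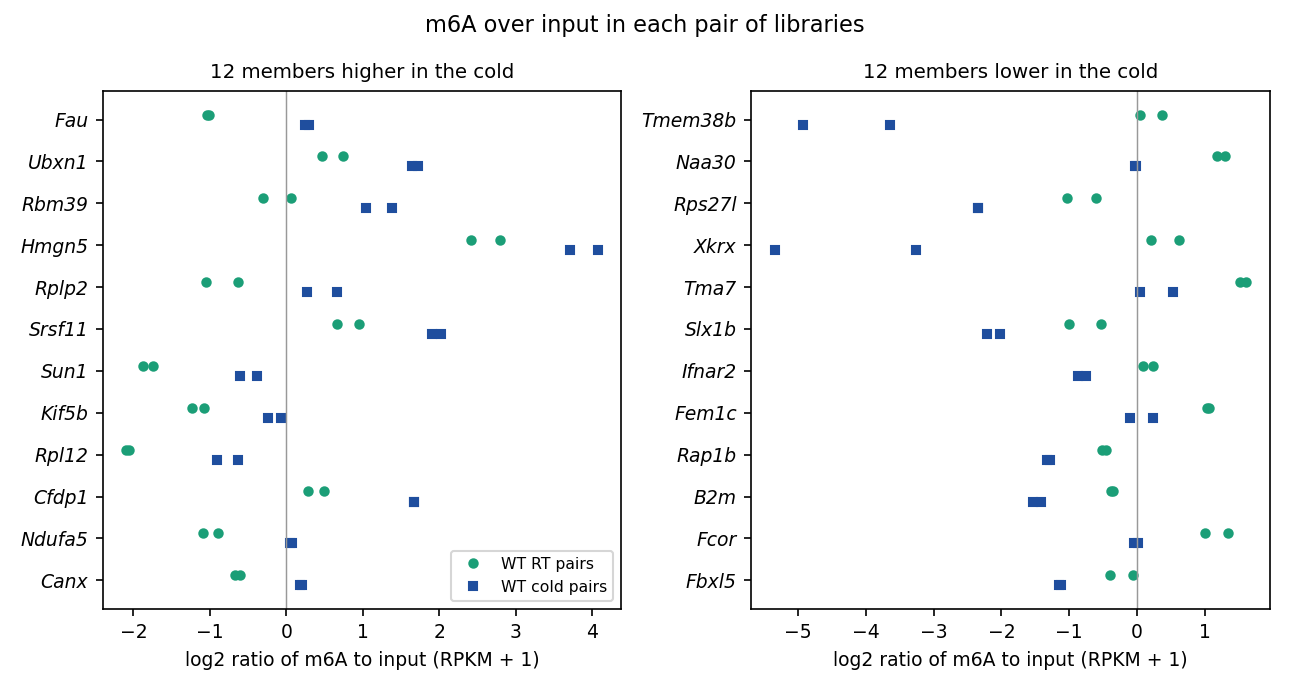
Log2 ratio of m6A precipitate to input (RPKM + 1) in each pair of libraries, for the 12 members with the lowest p on the higher side (left) and on the lower side (right), with WT RT pairs as green circles and WT cold pairs as blue squares. For all 24 genes the cold pairs and the RT pairs do not overlap, and Tmem38b and Xkrx reach -4.93 and -5.34 in cold pair 2; the genes were chosen for their p, so the separation itself is a description.

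The remaining 3 of the 12 were mRNAs of ribosomal proteins: Fau, whose product is a ubiquitin-like protein fused to a ribosomal protein, and Rplp2 and Rpl12 of the large subunit. Messages of this kind share a run of pyrimidines at the cap, the 5′ TOP tract, through which their translation follows growth signals. The 30 bases around the annotated RefSeq start of 5 such genes are shown, 12 before it and 18 from it on (GRCm38.p6, 5′ to 3′ on the gene's strand). The 5 were picked as examples and all carry a run, which many ribosomal protein members do not. Fau is not on the ribosomal protein list counted below. Whether the run relates to the capture change was not tested. Capitals mark an uninterrupted run of at least 6 C or T bases that begins with C within 10 bases of the start.
Fau: gcgcccccaCTTCTTCCTCTTTCTTgactc
Rplp2: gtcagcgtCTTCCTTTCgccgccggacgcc
Rpl12: ggagcaggatccgtCTTTTCggctttcggc
Rps6: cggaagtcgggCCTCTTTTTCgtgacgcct
Rpl15: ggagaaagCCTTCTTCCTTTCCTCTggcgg
They lie at chr19:6057935-6057964 (Fau, plus strand), chr7:141447639-141447668 (Rplp2, plus strand), chr2:32961700-32961729 (Rpl12, plus strand), chr4:86857350-86857379 (Rps6, minus strand), chr14:18270969-18270998 (Rpl15, minus strand). Such a run, searched on the transcribed strand alone, was found in 27 of the 53 ribosomal protein members that the RefSeq promoter table holds (50.9%), in 1021 of 4698 members in it (21.7%) and in 5508 of all 27025 genes in it (20.4%). A match is a description of these letters and not of a functional tract.

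The mRNAs of cytosolic ribosomal proteins had a capture ratio change above that of the median member in nearly every gene. Of 76 genes listed, 73 were members. None passed for the enrichment change (0.0612% of all genes tested did; 2 of the 73 passed with quantile scaling), 48 had an unadjusted p under 0.05, and 27 were called higher and 0 lower with pairs as a random effect (2.05% of all genes tested were called higher). Their median change was 0.60, against 0.15 over members, and it was 0.47, 0.69 and 0.66 with median-ratio scaling, quantile scaling and scaling outside the mitochondrial reads. Both cold pairs lay above both RT pairs for 65 of the 73 (beside 45.2% of all members) and below for 1.

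In the input all 73 fell (beside 54.6% of all genes tested), with a median of -1.65, and in the precipitate 65 fell and 0 rose (beside 47.2% and 8.97%), with a median of -1.04. The fall in the input held for 58 with median-ratio scaling and for 72 with each of the other scalings, and that in the precipitate for 34, 52 and 56 with median-ratio, quantile and outside-mitochondrial scaling, with 2, 1 and 0 rising. The median log2 ratio was -1.76 at RT and -1.21 in the cold, so these mRNAs were captured less than the median member (-0.48 at RT, -0.33 in the cold) at both temperatures. Fau is not on this list and is not counted among the 73. Fau input was 503 and 532 RPKM at RT and 104 and 127 in the cold, and Fau precipitate 245 and 262 and then 128 and 150. Its ratio was -1.04 and -1.02 in the RT pairs and 0.29 and 0.24 in the cold pairs, a change of 1.29 ± 0.18 (adjusted p = 0.0507). Fau passed in limma with quantile scaling (adjusted p = 0.0480), with scaling outside the mitochondrial reads (0.0482) and with a pseudocount of 5 (0.0123). It did not pass with median-ratio scaling (0.138), a pseudocount of 0.1 (0.121) or the 8 WT libraries alone (0.122). Neither did it pass with exact pairs (0.0755) or with voom weights on the recovered reads (0.0933). Leaving out each library in turn gave changes between 1.153 and 1.435.

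Rplp2 input was 129 and 138 RPKM at RT and 27.3 and 32.6 in the cold, with precipitate of 83.0 and 66.5 and of 43.5 and 39.5, and Rpl12 input was 349 and 329 RPKM at RT and 47.1 and 55.0 in the cold. In both genes the point estimate was lower for the input change than for the precipitate change, and the ratio differed by 1.30 ± 0.22 and 1.30 ± 0.23. Rplp1, the most abundant of the group, had input of 1238 and 1153 RPKM at RT and of 259 and 317 in the cold, precipitate of 177 and 184 and of 71.6 and 75.5, and a change of 0.77 ± 0.18 (adjusted p = 0.176; 0.0226 with pairs as a random effect). The range over the group ran from -0.45 ± 0.19 in Rpl29 to 1.33 ± 0.58 in Rps23. Processed pseudogenes of ribosomal protein genes are numerous, and how reads shared with them were counted is not given in the sources used here.

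Translation factors lay on the same side of the median member, with a smaller median. Of 28 members, 0 passed and 4 were called higher with pairs as a random effect (beside 2.05% of all genes tested). The median change was 0.40 (0.25 with median-ratio scaling). Both cold pairs lay above both RT pairs for 22 and below for 1, beside 45.2% and 16.2% of all members. Eef1a1, the elongation factor that brings aminoacyl-tRNA to the ribosome and the most abundant of them, stood at 0.34 ± 0.18. The highest was Eif4a2, a helicase of the initiation machinery, at 0.79 ± 0.22 (adjusted p = 0.233; 0.0326 with pairs as a random effect). In the input 16 of the 28 fell and 0 rose, beside 54.6% and 6.78% of all genes tested, so the share that fell was near the background, and with median-ratio scaling 9 rose and 5 fell.

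Messages made inside mitochondria, which encode core subunits of the respiratory chain, rose in both assays with RPKM as deposited, though 3 of 10 did with quantile scaling. All 10 in the matrix were members and rose in input (median 1.254) and precipitate (median 1.92) with RPKM as deposited, with median-ratio scaling and with scaling outside the mitochondrial reads (6.78% and 8.97% of all genes tested rose with RPKM as deposited). For the enrichment change 0 of 10 passed and 2 were called higher with pairs as a random effect (beside 2.05% of all genes tested). Both cold pairs lay above both RT pairs for 8 of the 10 and below for 0, beside 45.2% and 16.2% of all members. The median change was 0.69 (0.30 with quantile scaling). mt-Co2, a subunit of cytochrome c oxidase, had input of 7514 and 8279 RPKM at RT and of 17478 and 15419 in the cold, and precipitate of 6277 and 5341 and of 29226 and 25952. Its ratio differed by 1.19 ± 0.29 (adjusted p = 0.190; 0.0245 with pairs as a random effect).

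mt-Nd1, a subunit of complex I, differed by 1.01 ± 0.29 (adjusted p = 0.237; 0.0413 with pairs as a random effect), and mt-Co1, the most abundant of the 10, by 0.65 ± 0.27. mt-Nd3 was the one below 0, at -0.27 ± 0.23. With quantile scaling mt-Co1 and mt-Nd2 were also below 0, at -0.14 and -0.79, the latter from 0.34. Together these mRNAs made up 5.79% and 5.94% of RT input, 15.1% and 13.8% of cold input, 2.63% and 2.08% of RT precipitate and 9.75% and 9.15% of cold precipitate. Lars2, which has a share of its own this large in the precipitate, went the other way: its ratio was 2.73 and 2.35 in the RT pairs and 1.71 and 1.30 in the cold pairs, a change of -1.04 ± 0.37 that did not pass (adjusted p = 0.323).

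Nuclear genes of oxidative metabolism mostly rose in RNA level, and the medians of their capture change depended on the scaling. TCA cycle enzymes had 21 members, of which 19 rose in input and 19 in precipitate (6.78% and 8.97% of all genes tested rose). Their enrichment differed by a median of 0.29 (0.16 with median-ratio and 0.59 with quantile scaling, beside 0.02 and 0.12 over members). None passed, and 2 were called higher with pairs as a random effect (beside 2.05% of all genes tested). Both cold pairs lay above both RT pairs for 16 of the 21, beside 45.2% of all members. Idh3a, a subunit of the NAD-dependent isocitrate dehydrogenase, had input of 46.7 and 52.4 RPKM at RT and of 205 and 182 in the cold, and precipitate of 7.58 and 9.36 and of 60.0 and 58.6, a difference in the ratio of 0.73 ± 0.21 (adjusted p = 0.236; 0.0329 with pairs as a random effect). Sdhd, a membrane anchor of succinate dehydrogenase, lay lowest at -0.58 ± 0.24.

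Among 71 nuclear-encoded respiratory chain subunits, 61 rose in input and 60 in precipitate (beside 6.78% and 8.97% of all genes tested). The median enrichment change was 0.19 (0.08 with median-ratio scaling, 0.43 with quantile scaling). None passed (3 did with quantile scaling). With pairs as a random effect 4 were called higher and 1 lower, beside 2.05% and 0.528% of all genes tested. The cold pairs lay above the RT pairs for 32 and below for 12, near the shares over all members (45.2% and 16.2%). The list spanned a wide range, from Cox5a, a subunit of cytochrome c oxidase, at -1.13 ± 0.28 to Ndufa5 at 1.06 ± 0.19. Cox5a input was 94.7 and 109 RPKM at RT and 194 and 189 in the cold, whereas its precipitate was 47.9 and 71.4 and then 56.4 and 44.1, so that input rose and precipitate overlapped (adjusted p = 0.191 for the ratio; 0.0225 with pairs as a random effect). Atp5b, the catalytic subunit of ATP synthase, stood at 0.49 ± 0.19. Fatty acid oxidation genes had 26 members with a median of 0.20 (0.08 with median-ratio and 0.53 with quantile scaling), of which 23 rose in input, 0 passed for enrichment and 2 were called higher with pairs as a random effect. The highest was Acsl4, an acyl-CoA synthetase, at 1.07 ± 0.24 (adjusted p = 0.172; 0.0237 with pairs as a random effect), and Acsl1 stood at 0.19 ± 0.38.

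Thermogenic and beige genes had a capture change close to that of the median member. Of 32 listed, 13 were members, since the rule asks for 5 RPKM at RT. Of these 13, 10 rose in input and 11 in precipitate (beside 6.78% and 8.97% of all genes tested), while enrichment differed by a median of 0.12, with none passing, none called with pairs as a random effect and none at an unadjusted p under 0.05. Cox8b, a thermogenic-fat subunit of cytochrome c oxidase, went from 68.1 and 78.8 to 387 and 312 RPKM in input and from 67.9 and 58.6 to 375 and 358 in precipitate. Its RT and cold ratios overlapped, and the change was 0.29 ± 0.25. Ucp1, the uncoupling protein of thermogenic mitochondria, was not a member because its RT inputs stood at 2.13 and 9.91 RPKM (854 and 639 in the cold), and Prdm16, with at most 4.63 RPKM in any WT input, was not one either.

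Among 21 adipocyte gene members the median change was 0.04 (-0.07 with median-ratio and -0.10 with quantile scaling), with 0 called by either fit. Cold pairs lay above RT pairs for 10 and below for 5, beside 45.2% and 16.2% of all members. The ends were Retn, the hormone resistin, at -0.70 ± 0.43 and Cd36, a fatty acid transporter, at 0.48 ± 0.18. Fabp4, the fatty acid carrier of fat cells, stood at 0.29 ± 0.23 with the deposited scale and at -1.002 with quantile scaling. Pparg, the master regulator of adipocyte identity, rose in input from 63.3 and 69.5 to 131 and 109 RPKM and in precipitate from 36.7 and 42.5 to 84.7 and 79.4. Its ratio differed by 0.19 ± 0.23 (adjusted p = 0.835), which did not pass.

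De novo lipogenesis genes (22 members) had a median of 0.31 (0.19 with median-ratio scaling), and 0 were called by either fit. Cold pairs lay above RT pairs for 17 and below for 1, beside 45.2% and 16.2% of all members. Scd1, the stearoyl-CoA desaturase, rose in input from 4429 and 4739 to 16998 and 19805 RPKM and in precipitate from 2025 and 2096 to 10048 and 11818, with a change of the ratio of 0.40 ± 0.35. Lipolysis and triglyceride synthesis genes (16 members) had a median of 0.14 and 0 calls, with Gpd1, which makes glycerol phosphate, at 0.18 ± 0.31.

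Klf9, a Kruppel-like transcription factor, was somewhat higher in cold input, with overlapping precipitates, and passed in neither assay (adjusted p = 0.156 and 0.379 in limma). Its input was 25.1 and 26.1 RPKM at RT and 28.8 and 48.0 in the cold, and its precipitate 41.9 and 46.6 at RT and 41.2 and 75.3 in the cold. Within pairs the log2 ratio was 0.72 and 0.82 at RT and 0.50 and 0.64 in the cold, so both cold pairs lay below both RT pairs. The change was -0.20 ± 0.43 (95% interval -1.15 to 0.75; adjusted p = 0.929), and with exact pairs the adjusted p was 0.574. It turned to 0.16 without cold input replicate 2 and to 0.23 without cold precipitate replicate 1, each of which breaks a pair.

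KLF transcription factors as a family had 9 members of 15 and a median of -0.09. For 0 of the 9 did the cold pairs lie above the RT pairs (45.2% of all members) and for 3 below (16.2%). After subtracting the median change of members from both cold ratios, 8 lay below (28.9% of all members). None was called by either fit. The lowest was Klf2, a factor of endothelial and immune cells, at -0.62 ± 0.52, with input from 88.5 and 83.3 to 16.5 and 19.7 RPKM. Endothelial markers summed to 512 and 493 RPKM at RT and to 361 and 369 in the cold. T and B cell markers summed to 1085 and 993 RPKM at RT and to 4.15 and 3.19 in the cold. Macrophage markers, which include Lpl, overlapped in their sum (1605 and 1668 RPKM at RT, 1485 and 1802 in the cold). Lpl itself went from 672 and 680 to 1242 and 1555 RPKM in input. Of the 10 macrophage members, 8 fell in input and 1 rose with RPKM as deposited (median -1.29). All genes tested had 54.6% falling and 6.78% rising. With median-ratio scaling, 3 of the 10 fell and 2 rose. The part of these cell types in the change of Klf2 was not tested. Immediate early genes, with 4 members of 20, had a median of -0.11 and 0 calls; Jund stood at -0.02 ± 0.36, with no stable sign over the alternative settings.

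Of the genes that write, erase and read m6A, 16 of 27 were members. In the input 12 of them fell and 0 rose with RPKM as deposited, beside 54.6% and 6.78% of all genes tested (2 fell and 2 rose with median-ratio scaling), and their enrichment differed by a median of 0.12, with 0 called by either fit. The range ran from Mettl5, an rRNA methyltransferase, at -0.53 ± 0.35 to Fmr1, an RNA-binding protein that has been described as a reader, at 0.75 ± 0.44. Hnrnpa2b1, a nuclear RNA-binding protein and the most abundant of the list, stood at 0.48 ± 0.18 (adjusted p = 0.344). Mettl3 was not a member: its input was 10.8 and 9.27 RPKM at RT and 5.24 and 3.66 in the cold, and its precipitate 7.16 and 7.28 and then 4.23 and 2.69.

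**Figure D4:**
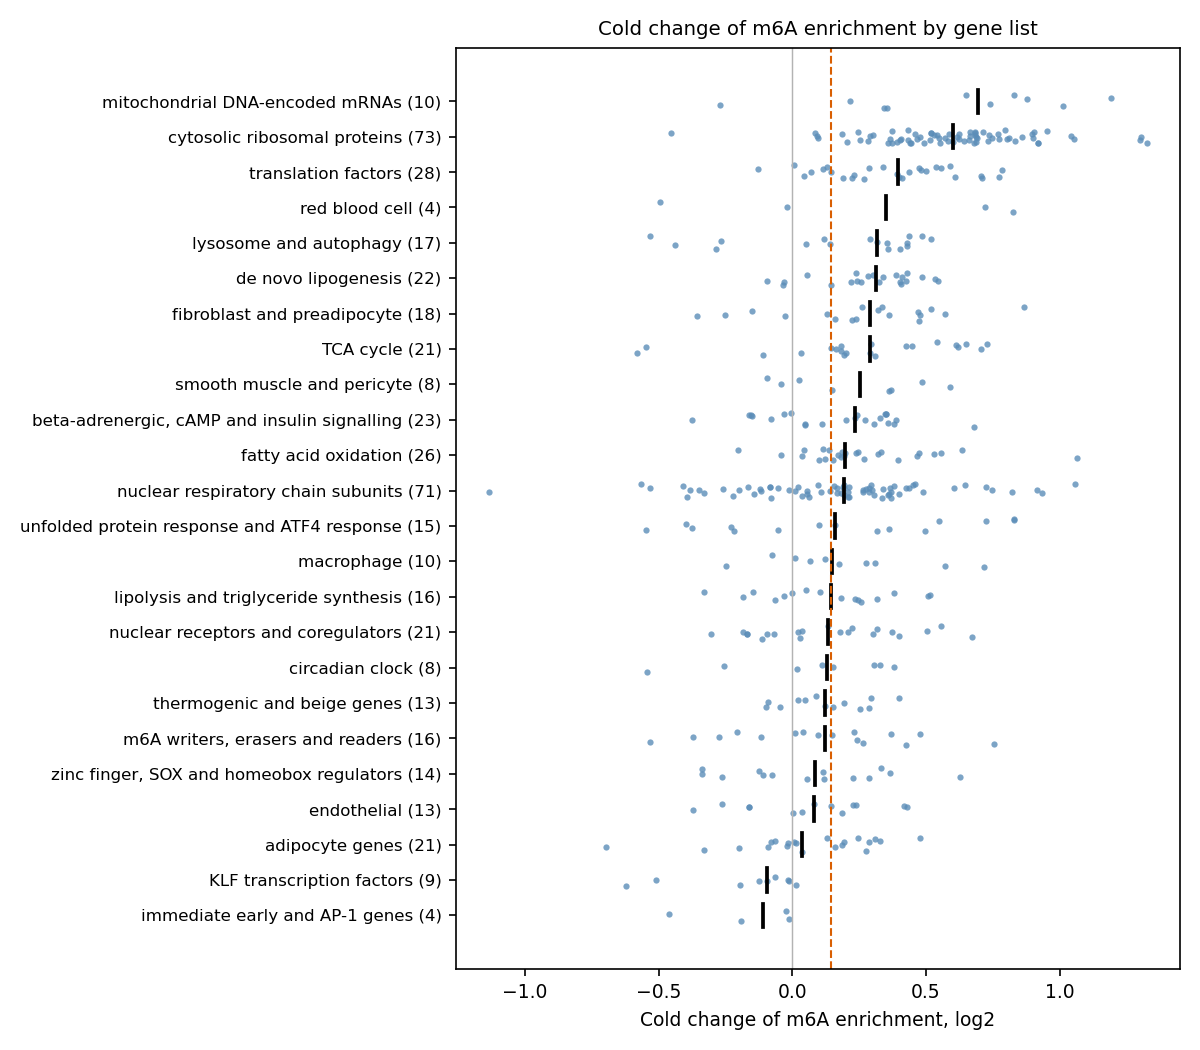
Cold change of m6A enrichment (log2, horizontal axis) of the members of each gene or marker list with at least 4 members, 1 point per gene and the number of members in brackets; black bars mark list medians and the dashed line the median of all members, 0.15. Mitochondrially encoded mRNAs (0.69) and ribosomal proteins (0.60) have the highest medians, KLF factors (-0.09) and immediate early genes (-0.11) the lowest; genes can be on several lists.

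The other lists had medians from 0.08 to 0.32, beside 0.15 over members, and 0 of their members passed. Unfolded protein and ATF4 response genes (15 members) had a median of 0.16. Of these, 3 were called higher with pairs as a random effect (beside 2.05% of all genes tested) and 1 was called with quantile scaling. Calr, the chaperone calreticulin, stood at 0.55 ± 0.25. Lysosome and autophagy genes (17 members) had a median of 0.32, with the protease Ctsd at 0.29 ± 0.17. Beta-adrenergic, cAMP and insulin signalling genes (23 members) had a median of 0.23, with Prkar2b, a regulatory subunit of protein kinase A, at 0.33 ± 0.18. Nuclear receptors and coregulators (21 members) had a median of 0.13, with the histone methyltransferase Kmt2d at 0.03 ± 0.19, and circadian clock genes (8 members) also 0.13, with the clock repressor Nr1d1 at 0.31 ± 0.90. Zinc finger, SOX and homeobox regulators (14 members) had a median of 0.08 (-0.02 with median-ratio and -0.01 with quantile scaling), with the mRNA decay factor Zfp36l1 at -0.07 ± 0.27. Long noncoding RNAs on the list were not in the matrix.

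Cell-type marker lists with members also gave 0 calls by either fit. Their medians were 0.15 for macrophage markers (10 members, led by Lpl at 0.31 ± 0.37, which adipocytes also make), 0.29 for fibroblast and preadipocyte markers (18, led by Gsn at 0.52 ± 0.41), 0.08 for endothelial markers (13; -0.08 with median-ratio scaling; led by Cdh5 at -0.16 ± 0.28) and 0.25 for smooth muscle and pericyte markers (8, led by Rgs5 at 0.37 ± 0.35). Schwann cell markers had 3 members (median 0.25, Pmp22 at 0.37 ± 0.37) and red blood cell markers 4 (median 0.35, Hbb-bs at -0.50 ± 0.73). Markers of T and B cells, lymph node stroma, skeletal muscle, epithelium, and neutrophils and mast cells had 0 members, so the enrichment change says nothing of those cells' own genes.

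Over the members at large, the median change was similar across transcript lengths and levels of capture. In 5 equal bins of transcript length the median change was 0.13, 0.14, 0.16, 0.15 and 0.14 from the shortest to the longest. In 5 bins of the ratio measured in the cKO cold pairs, which lie outside the contrast, it was 0.15, 0.16, 0.14, 0.10 and 0.16 from the least to the most captured. By mean WT input it was 0.10 in the lowest bin and 0.22 in the highest, with both cold pairs above both RT pairs for 34.8% and 58.4% of genes. Of all members, 1303 had under 5 RPKM in at least 1 of the 4 WT precipitates, since the rule bounds the input alone.

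At the edge of the rule, the members with the lowest WT input were Antxr1 (lowest input 5.0004 RPKM, change 0.26 ± 0.57) and Pwwp2a (5.001 RPKM, change -0.14 ± 0.23). The first genes outside it were Meis2 (lowest input 4.996 RPKM, change -0.01 ± 0.31) and Ccnyl1 (4.995 RPKM, change -0.43 ± 0.33). None of these 4 passed.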

How the data were processed

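Adipose RNA was measured as input and as anti-m6A precipitate. The authors deposited 1 matrix of RPKM values for 17883 genes. HISAT2 and mm10 appear in the submitters' processing notes, without roles or versions; the counting tool, its use of strand and the annotation are not given in the sources used here. All 16 value columns were mapped to samples by their names. The reference table held 17871 of the identifiers and gave back 25 symbols that stood as dates. Reads and lengths were recovered as whole numbers (17882 of 17883 genes within 0.001 read, 99.99%), which gave the totals the authors scaled to. These ran from 3895648 to 8674180 over the 12 input and m6A libraries.

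log2(RPKM + 1) of the 12 libraries was fitted in limma 3.58.1 (R 4.3.3; lmFit with 1 mean per group, then eBayes with a trend) for 13062 genes (2 or more libraries at 1 RPKM or above). The enrichment change was the interaction contrast, two-sided, with 6 residual and 4.09 prior degrees of freedom and Benjamini-Hochberg adjustment over all genes tested at 0.05. The added 1 RPKM shrinks changes of low genes. The fit was also run on simulated data with independent noise in each library. Such data lack the shared deviations of pairs, so they cannot tell how pairs should be treated. Named genes were members passing the test, also with median-ratio scaling, with non-overlapping pairs, up to 12 per direction, filled up by lowest p; study genes; for each list up to 4 called members or else the most abundant one; and the genes nearest the rule's limit. One gene that the rule names is not reported here. Genes at the ends of a list and Lars2 were chosen after their values were seen. The members and lists were chosen with earlier results of these data known. Pairs by replicate number were checked by the correlation of deviations (0.32, 0.69 and 0.50 over members). Alternatives were pseudocounts of 0.1 and 5, other filters and scalings, WT libraries alone, exact pairs and leaving out each library. Pairs as a random effect (duplicateCorrelation, consensus correlation 0.42) and voom weights on the recovered reads were chosen after seeing the data. Promoter windows came from RefSeq (GRCm38.p6). Python 3.11.15, numpy 2.4.6, pandas 2.3.3 and matplotlib 3.10.9 were used for the rest.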

Additional observations from a re-analysis of the deposited data

How the results depend on the processing

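The count of members called for the enrichment change was 1 and rested on Tmem38b, and it moved with most settings. It was 0 with a pseudocount of 0.1, 44 with a pseudocount of 5 (36 higher, 8 lower), 2 without a filter on low values, 28 with quantile scaling (21 higher, 7 lower), 2 with scaling outside mitochondrial mRNAs, Lars2 and Gm20594, 0 with the 8 WT libraries alone, 0 with the replicate block as exact pairs, 211 with the replicate block as a random effect and 0 with voom weights; leaving out each library in turn gave 0 to 2. The cause of these differences was not tested. It stayed at 1 with median-ratio scaling and with members alone in the fit. Total input calls (3485 members) were 2997 to 3680 over the alternatives that kept 2 libraries per group, also with the replicate block. Total precipitate calls (3256) were 2980 to 3410. Their main direction turned with the scaling. In the input 685 rose and 2800 fell with RPKM as deposited, 2194 and 803 with median-ratio scaling and 2000 and 1095 with quantile scaling. In the precipitate these counts were 953 and 2303, 2311 and 852, and 2327 and 902. The change of Tmem38b lay between -5.09 and -3.86 over all alternatives, with adjusted p from 0.00141 to 0.248. Some uncalled genes changed sign. With quantile scaling Fabp4 stood at -1.002, mt-Co1 at -0.14, mt-Nd2 at -0.79 and Kmt2d at -0.24. Kmt2d also stood at -0.060 with a pseudocount of 5 and -0.0735 with median-ratio scaling, and Jund at 0.0251 with a pseudocount of 0.1, 0.0598 with scaling outside the mitochondrial reads and 0.00902 with voom weights. Leaving out 1 library reversed Klf9 (-0.62 to 0.23), Gpd1 (-0.065 to 0.43), Acsl1 (-0.11 to 0.49), Zfp36l1 (-0.30 to 0.16), Jund (-0.17 to 0.13), Nr1d1 (-0.32 to 0.94), Kmt2d (-0.0948 to 0.16), Pmp22 (-0.0114 to 0.76), Hbb-bs (-1.13 to 0.14) and Pwwp2a (-0.32 to 0.0415), each given with its lowest and highest value over the libraries left out. With 2 libraries per group, and about 5 RPKM allowed in the input, depth limits the lowest precipitates, such as the 4 and 8 reads of Xkrx.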

Other observations

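Tmem38b and Xkrx were also measured in libraries outside the comparison. In the cKO cold mice, input of Tmem38b was 252 and 182 RPKM and its precipitate 5.52 and 4.48, and input of Xkrx was 110 and 63.0 RPKM and its precipitate 0.412 and 0.393. Both genes thus had high input and low precipitate in all 4 cold pairs. The WT cold and cKO cold libraries lie in the same series of library codes, so cold and code series cannot be told apart here either. Ribosome footprints of Tmem38b stood at 23.3 and 9.57 RPKM (WT cold) and at 21.0 and 25.5 (cKO cold). Those of Xkrx stood at 0.891 and 0.389 RPKM (WT cold) and at 4.10 and 0.562 (cKO cold). In both genes the 4 footprint libraries were far below the 4 cold inputs on the RPKM scale, which the 2 assays do not share in a calibrated way. Lars2 footprints stood at 13.3 and 8.14 RPKM in WT cold, beside WT cold input of 19879 and 25352. What the reads counted to Lars2 come from was not tested.

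Among the 7 genes called for the enrichment change that are not members, 3 had the same form at low levels in both WT cold and cKO cold. Rnf225, a RING finger gene, had RT input of 0.956 and 0.876 RPKM, WT cold input of 8.83 and 14.8 and cKO cold input of 18.7 and 18.5, against at most 0.593 in any precipitate of the 3 conditions. Klkb1, which encodes plasma prekallikrein of the liver, had input of 0.123 and 0.180 RPKM at RT and of 3.29 and 4.88 in WT cold. Olfr729, an olfactory receptor gene, had 0 reads in both RT inputs and 82 and 58 in the WT cold inputs, with 0 and 2 in the WT cold precipitates. Footprints of these 3 genes were listed at 0 in all 4 footprint libraries. The changes were -2.83 ± 0.32, -2.18 ± 0.29 and -1.80 ± 0.24, with adjusted p of 0.0268, 0.0432 and 0.0432 in limma. Where along these transcripts the input reads lie is not shown by a matrix per gene.

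The other 4 called non-members were at or near 0 in at least 1 condition. Cideb, a lipid droplet protein of the CIDE family, was at 0.213 and 0 RPKM in RT input and at 3.61 and 3.52 in WT cold input, with -1.89 ± 0.26 for the ratio. Plac8 was at 17.1 and 16.9 RPKM in RT input and at 1.22 and 0.550 in WT cold input, with 2.85 ± 0.35 for the ratio. H2bc12, a histone gene, had 45 and 30 reads of RT input, and both WT cold inputs held 0. Dsc3, a desmosomal cadherin, had 333 and 316 reads in the RT inputs and 0 in all 4 WT cold libraries of both assays, so its cold ratio of 0 is that of a gene with no reads, and its change of 1.59 ± 0.22 is the RT ratio with its sign turned.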
